A study of Arabidopsis thaliana with 8 samples.

Results

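ARF2 (AT5G62000), ARF3 (AT2G33860, also named ETTIN) and ARF4 (AT5G60450) are the AUXIN RESPONSE FACTOR genes whose mRNAs are cut under the guidance of trans-acting siRNAs made from TAS3 transcripts. They were taken by their locus codes from the table of small RNA reads on mRNA loci, and all 3 of 3 were found among the 24859 loci of the table. The plantlets were of the Columbia (Col-0) accession and were either urt1-1 xrn4-3 double mutants, xrn4-3 or urt1-1 single mutants, or WT, with 2 biological replicates per genotype and 8 libraries in all. They were 24 days old and had grown in vitro under 12 h days at 22 °C and 12 h nights at 18 °C. Both mutations are T-DNA insertions, 1 allele per gene. URT1 is the terminal uridylyltransferase that uridylates mRNAs at their 3′ ends, and XRN4 is the cytosolic exoribonuclease that degrades uncapped mRNAs from the 5′ end. The study asked whether mRNAs give rise to siRNAs when uridylation and this decay are impaired, and the 3 ARF loci are mRNA loci that are known targets of siRNAs in WT plants.

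Auxin response factors bind auxin response elements in promoters and activate or repress the genes next to them. ARF2, ARF3 and ARF4 are mostly described as repressors. ARF3 and ARF4 promote the identity of the lower side of the leaf and the passage from the juvenile to the adult phase, and ARF2 restrains cell division and organ growth and acts in senescence and seed size. In the TAS3 pathway, miR390 loaded in AGO7 binds a TAS3 transcript, RDR6 and SGS3 turn the transcript into double-stranded RNA, and DCL4 cuts it into siRNAs, some of which pair with the mRNAs of ARF2, ARF3 and ARF4. The reads counted at an ARF locus are small RNAs whose own sequence matches that locus. The TAS3 siRNAs that target its mRNA match the TAS3 loci. A short TAS3 read from a stretch identical in both could still also count at the ARF locus.

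The sequences that tie the 3 genes together are the TAS3 windows complementary to them. All 3734 windows of 21 nt on both strands of the TAS3a, TAS3b and TAS3c transcripts (RefSeq, TAIR10.1) were searched against the mRNAs, and 44 windows paired with all 3 mRNAs with at most 5 mismatches. All 44 lay on the TAS3 transcript strand, 20 in TAS3a, 11 in TAS3b and 13 in TAS3c. The 4 windows below, 5′ to 3′, are the one with the fewest mismatches in each transcript and another one in TAS3a. That other window, TAS3a 695, lies upstream and had the fewest mismatches among TAS3a windows that barely or do not overlap TAS3a 715. The number in each name is the first base in the transcript. TAS3a 715 lies on the plus strand at chr3:5862205-5862225, TAS3a 695 at chr3:5862185-5862205, TAS3b 212 at chr5:20134514-20134534 and TAS3c 321 at chr5:23394325-23394345. Capitals mark bases that pair with the best matching ARF mRNA.
TAS3a 715: TTTCTTGACCTTGtAAGACCC
TAS3a 695: TTCTTGACCTTGtAAGgCCTT
TAS3b 212: TTCTTGACCTTGtAAGACCTT
TAS3c 321: TtTTTCTTGACCTTGCAAGgC

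TAS3a 715 and TAS3b 212 paired with ARF2 with 2 mismatches and with ARF3 and ARF4 with 1 mismatch each. TAS3a 695 and TAS3c 321 paired with ARF2 with 3 mismatches and with ARF3 and ARF4 with 2 mismatches each. ARF2 thus had 1 mismatch more than the other 2 mRNAs in each of the 4 windows. Windows beside them did not all keep this order. TAS3a 716 and TAS3b 213 paired with each of the 3 mRNAs with 2 mismatches. TAS3c 319 paired with ARF2 with 2 mismatches and with ARF3 and ARF4 with 3 mismatches each. These windows are the complement of a site in the mRNA, not siRNAs read from the libraries, since the sizes and sequences of reads were not analysed here.

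The sites in the 3 mRNAs are shown because their number and letters separate ARF2 from ARF3 and ARF4. ARF2 holds 1 site and ARF3 and ARF4 hold 2 sites each, all in coding sequence and in every annotated model of the gene. Capitals mark bases that pair with TAS3a 715, and sequences are read 5′ to 3′ along the mRNA.
ARF2 site 1: GGGTCTTgCAAGGTCAAGAAt
ARF3 site 1: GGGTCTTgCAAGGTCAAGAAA
ARF3 site 2: aGGTCTTgCAAGGTCAAGAAA
ARF4 site 1: aGGTCTTgCAAGGTCAAGAAA
ARF4 site 2: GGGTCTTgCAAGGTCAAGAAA

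Site 1 of ARF3 and site 2 of ARF4 have the same letters, as have site 2 of ARF3 and site 1 of ARF4. The ARF2 site lies at chr5:24913262-24913282 on the plus strand, in exon 12 of 15, from base 1987 to base 2007 of a transcript of 3832 nt. The ARF3 sites lie on the minus strand at chr2:14325941-14325961 and chr2:14325821-14325841, both in exon 10 of 10, and start 120 nt apart at bases 1675 and 1795 of 2430. The ARF4 sites lie on the minus strand at chr5:24309717-24309737 and chr5:24309507-24309527, both in exon 10 of 12, and start 210 nt apart at bases 1961 and 2171 of 3267. Among 24447 loci whose transcripts could be searched, 3 (0.0123%) held a match to TAS3a 715 with at most 2 mismatches, and these were ARF2, ARF3 and ARF4. With at most 3 mismatches 4 loci (0.0164%) did, with at most 4 mismatches 14 (0.0573%), and with at most 5 mismatches 141 (0.577%). TAS3a 715 was chosen for its few mismatches to ARF2, ARF3 and ARF4, so their place at the top is partly fixed by that choice. With at most 2 mismatches, TAS3a 695 and TAS3c 321 each matched only 2 of the 3 genes. A match of letters is a description and was not tested for cleavage here.

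**Figure D1:**
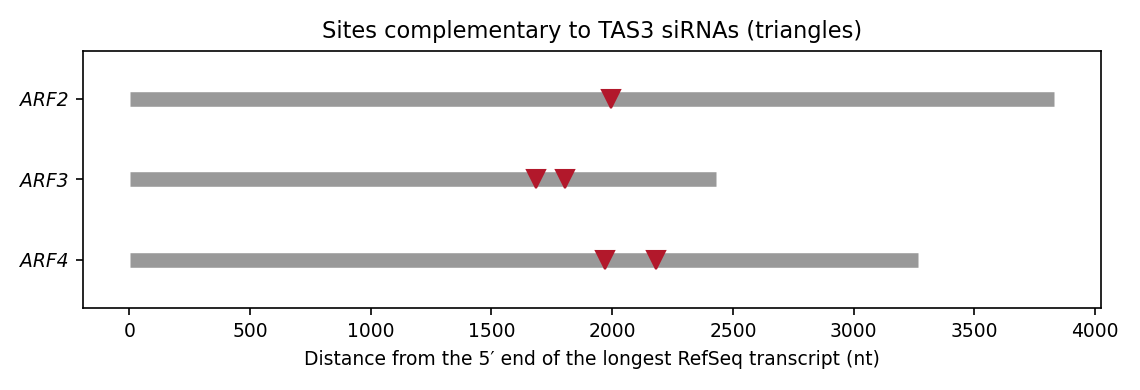
Positions of the sites complementary to TAS3a 715 (triangles) along the longest RefSeq transcript of ARF2, ARF3 and ARF4 (grey bars), in nt from the 5′ end. ARF2 has 1 site at base 1987, ARF3 has sites at bases 1675 and 1795, and ARF4 has sites at bases 1961 and 2171.

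The trigger of the pathway, miR390, is the other short sequence on which it rests. The sequence below was read from its annotation at chr2:16061971-16061991 on the plus strand, with its seed, bases 2 to 8, in capitals. Whether other loci encode it too was not searched.
miR390: aAGCTCAGgagggatagcgcc

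Each TAS3 transcript held 2 sites complementary to miR390, on either side of the ARF-matching windows. They start at bases 609 and 853 of TAS3a with 5 mismatches each, at bases 156 and 372 of TAS3b with 4 and 7 mismatches, and at bases 217 and 418 of TAS3c with 5 and 4 mismatches. The deposited table covers mRNA loci and held 0 of the 3 TAS3 loci, so the amount of TAS3 siRNA was not measured here. No exact 21-nt window was shared between a TAS3 transcript and ARF2, ARF3 or ARF4. Within 1 mismatch, the most the mapping allowed, 0 windows of the TAS3 transcripts lay in ARF2, 3 in ARF3 and 7 in ARF4. These counts are summed over TAS3a, TAS3b and TAS3c. The study kept a read's best alignments only, so a read identical to TAS3 would not count at an ARF locus with a mismatch. Shorter identical runs, on either strand, reached 16 nt in ARF2, 17 nt in ARF3 and 20 nt in ARF4. Reads of 14 to 30 nt were mapped, so a TAS3 read within such a run could also count at the ARF locus.

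Libraries held between 6045353 and 30064224 reads on mRNA loci, and of the 24859 loci 24722 passed edgeR's filter on low counts, with ARF2, ARF3 and ARF4 among them. A read with several equally good alignments was counted at each, and reads were counted on either strand. The mutated genes were looked at first. At the URT1 locus (AT2G45620), both urt1-1 xrn4-3 libraries held 9.20 and 5.94 scaled counts per 1000000 reads (CPM), the xrn4-3 libraries 13.99 and 271, the urt1-1 libraries 5.93 and 8.04 and the WT libraries 10.2 and 15.7. The value of 271 in xrn4-3 replicate 2 stood apart from the other 7, and the difference of xrn4-3 from WT, 3.46 on the log2 scale (SE 0.87, adjusted p = 0.0110 by edgeR's likelihood ratio test), was 0.11 without that library (adjusted p = 0.997). At the XRN4 locus (AT1G54490) the levels were 7.51 and 6.25 CPM in urt1-1 xrn4-3, 9.96 and 8.37 in xrn4-3, 12.4 and 11.1 in urt1-1 and 13.0 and 11.4 in WT. Small RNA at these loci does not measure their mRNA and so does not check the mutations.

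ARF2, whose locus spans 4853 bp at chr5:24910358-24915210 on the plus strand, had the most small RNA of the 3 genes, in CPM and in CPM per kb. Levels are given in CPM, that is reads per 1000000 of the reads on tested loci, scaled by the factors of the trimmed mean of M values (TMM). ARF2 had 83.8 and 103 CPM in urt1-1 xrn4-3 (93.3 ± 13.4), 66.4 and 67.7 in xrn4-3 (67.1 ± 0.876), 74.8 and 80.0 in urt1-1 (77.4 ± 3.69) and 74.7 and 83.7 in WT (79.2 ± 6.36; all SD, n = 2). In urt1-1 xrn4-3 both values exceeded both WT values, replicate 1 by a margin of less than 1 CPM over WT replicate 2. Both xrn4-3 libraries lay below both WT libraries, and the urt1-1 libraries overlapped with WT.

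ARF4, at chr5:24308322-24312698 on the minus strand (4377 bp), varied most between libraries. It had 32.7 and 25.7 CPM in urt1-1 xrn4-3 (29.2 ± 4.97), 42.0 and 53.6 in xrn4-3 (47.8 ± 8.22), 40.2 and 38.5 in urt1-1 (39.4 ± 1.18) and 49.6 and 42.2 in WT (45.9 ± 5.21; all SD, n = 2). The 2 lowest of the 8 libraries were those of urt1-1 xrn4-3. What share of all loci separates urt1-1 xrn4-3 from every other library was not determined. The urt1-1 libraries also lay below both WT libraries, and xrn4-3 overlapped with WT.

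ARF3, at chr2:14325269-14328978 on the minus strand (3710 bp), had the least small RNA, in CPM and in CPM per kb, and the narrowest range. Its levels were 14.3 and 13.0 CPM in urt1-1 xrn4-3 (13.6 ± 0.879), 16.01 and 16.7 in xrn4-3 (16.3 ± 0.459), 17.2 and 15.3 in urt1-1 (16.3 ± 1.32) and 17.9 and 12.6 in WT (15.2 ± 3.71; all SD, n = 2). The 2 WT libraries held the highest and the lowest value of all 8, so that every other genotype overlapped with WT. The raw reads behind these levels were 84 to 429 per library at ARF3, 211 to 847 at ARF4 and 438 to 3391 at ARF2. Between the highest and the lowest library the level differed 1.42-fold for ARF3, 1.55-fold for ARF2 and 2.09-fold for ARF4.

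**Figure D2:**
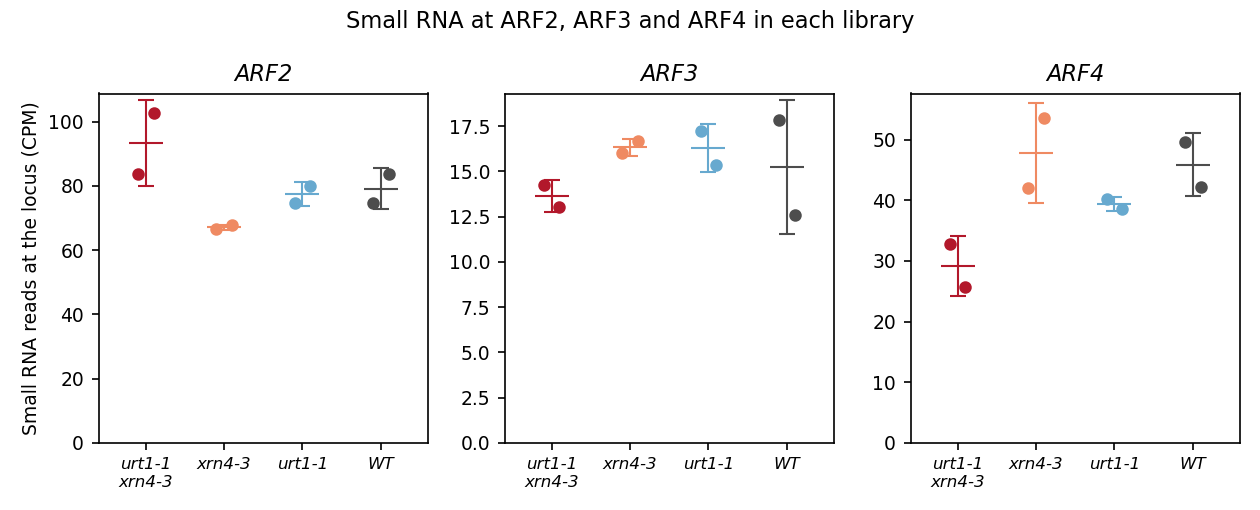
Small RNA at ARF2, ARF3 and ARF4 in CPM (y axis, from 0, one scale per gene) in urt1-1 xrn4-3, xrn4-3, urt1-1 and WT (x axis). Points are the 2 libraries of a genotype, horizontal marks their mean and bars 1 SD. At ARF4 the urt1-1 xrn4-3 libraries, at 32.7 and 25.7 CPM, lie below the 6 others, and the share of all loci with such a separation was not determined. At ARF3 the 2 WT libraries, at 17.9 and 12.6 CPM, enclose all others.

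In no comparison did ARF2, ARF3 or ARF4 pass the test. Of 15 tests, 3 genes in each of 5 comparisons, 0 had an adjusted p under 0.05 by edgeR's likelihood ratio test, 0 by edgeR's quasi-likelihood test, and 0 had an unadjusted p under 0.05 by the likelihood ratio test. The smallest unadjusted p was 0.114, and the smallest adjusted p (Benjamini-Hochberg over 24722 loci) was 0.415. The comparison of urt1-1 xrn4-3 with WT called 11.1% of all loci, 2474 of them higher and 260 lower in urt1-1 xrn4-3. Each difference is given on the log2 scale with its standard error (SE) and 95% interval.

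Against WT, the urt1-1 xrn4-3 double mutant differed by 0.24 at ARF2 (SE 0.46, interval -0.67 to 1.15), by -0.16 at ARF3 (SE 0.40, interval -0.96 to 0.63) and by -0.65 at ARF4 (SE 0.45, interval -1.53 to 0.22). The adjusted p by the likelihood ratio test was 0.824 for ARF2, 0.864 for ARF3 and 0.415 for ARF4. All 3 intervals include 0, and their bounds leave room for a change of more than 1 on the log2 scale upwards at ARF2 and downwards at ARF4. Among all loci the difference of ARF2 stood at percentile 61.9, that of ARF3 at percentile 40.1 and that of ARF4 at percentile 15.97, and the median of all loci was 0.01. With genome-mapped reads as library sizes the differences were 0.96 at ARF2, 0.59 at ARF3 and 0.059 at ARF4, but the median of all loci was then 0.74, and relative to it the 3 genes stood at 0.22, -0.15 and -0.68. The libraries of the 2 genotypes did not overlap at ARF2 and ARF4 and overlapped at ARF3, where 53.1% of all loci showed no overlap in one direction or the other.

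In the single mutants, the estimates for ARF4 and ARF3 lay closer to WT than in the double mutant, while that for ARF2 in xrn4-3 lay as far below WT as it lay above WT in urt1-1 xrn4-3. These distances from WT were not compared by a test. In xrn4-3, which called 4.45% of all loci against WT, the difference was -0.24 at ARF2 (SE 0.46, interval -1.15 to 0.67), 0.10 at ARF3 (SE 0.41, interval -0.70 to 0.90) and 0.06 at ARF4 (SE 0.45, interval -0.82 to 0.94), with adjusted p between 0.953 and 0.990 by edgeR's likelihood ratio test. ARF2 was the gene whose xrn4-3 and WT libraries did not overlap, as was so for 37.8% of all loci. In urt1-1, which called 0.0283% of all loci, the difference was -0.03 at ARF2 (SE 0.47, interval -0.94 to 0.88), 0.09 at ARF3 (SE 0.41, interval -0.71 to 0.90) and -0.22 at ARF4 (SE 0.45, interval -1.10 to 0.66), and each adjusted p was 1.00 by the same test. ARF4 was the gene whose urt1-1 and WT libraries did not overlap, as was so for 25.2% of all loci.

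Loss of URT1 in the xrn4-3 background gave the widest spread between the 3 genes. The urt1-1 xrn4-3 double mutant differed from xrn4-3 by 0.48 at ARF2 (SE 0.46, interval -0.43 to 1.39), by -0.26 at ARF3 (SE 0.41, interval -1.06 to 0.53) and by -0.71 at ARF4 (SE 0.45, interval -1.59 to 0.17). The adjusted p by edgeR's likelihood ratio test was 0.850, 0.936 and 0.666 in this order, and 2.04% of all loci were called. At each of the 3 genes the libraries did not overlap, with urt1-1 xrn4-3 above xrn4-3 at ARF2 and below it at ARF3 and ARF4. Among all loci 35.6% showed no overlap, and the differences stood at percentile 80.6 for ARF2, 31.1 for ARF3 and 8.91 for ARF4. With genome-mapped reads as library sizes they were 0.99, 0.22 and -0.27, beside a median of all loci of 0.49. The comparison shares the urt1-1 xrn4-3 libraries with that against WT.

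The interaction, which tests whether urt1-1 acted otherwise in the xrn4-3 background than in WT, called 0.121% of all loci. It was 0.51 at ARF2 (SE 0.66, interval -0.78 to 1.80), -0.36 at ARF3 (SE 0.58, interval -1.49 to 0.78) and -0.49 at ARF4 (SE 0.64, interval -1.74 to 0.75), each with an adjusted p of 1.00 by edgeR's likelihood ratio test. With genome-mapped reads as library sizes the interaction was 1.12 at ARF2, 0.16 at ARF3 and 0.012 at ARF4, beside a median of all loci of 0.55. The spread that sets these errors is edgeR's estimate for each gene, which is drawn toward the spread of the other loci. As a biological coefficient of variation it was 0.320 for ARF2, 0.271 for ARF3 and 0.308 for ARF4, beside 0.325 for all loci in common. Its nearness to the common value is therefore partly built in. Within a genotype, the libraries differed 1.02-fold to 1.23-fold at ARF2, 1.04-fold to 1.42-fold at ARF3 and 1.04-fold to 1.28-fold at ARF4.

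**Figure D3:**
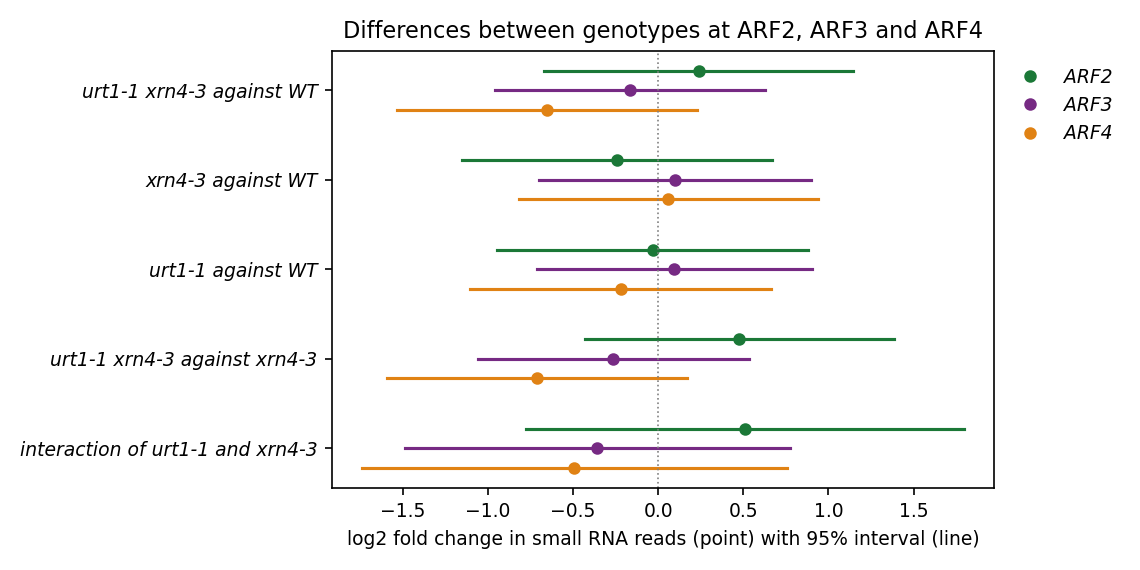
Differences in small RNA at ARF2, ARF3 and ARF4 in the 5 comparisons (rows), as log2 fold change (points) with 95% intervals (lines). Every interval includes 0. The points of ARF2 and ARF4 lie farthest apart for urt1-1 xrn4-3 against xrn4-3, at 0.48 and -0.71.

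Because ARF2 and ARF4 pointed in opposite directions in urt1-1 xrn4-3, the ratio of their reads within each library was also taken, which is free of any scaling between libraries. This ratio was chosen after the values were seen and was not tested. There were 2.56 and 4.004 reads at ARF2 per read at ARF4 in urt1-1 xrn4-3, 1.58 and 1.26 in xrn4-3, 1.86 and 2.08 in urt1-1 and 1.51 and 1.98 in WT. Both urt1-1 xrn4-3 ratios lay above the 6 others. This separation is partly built in, since the pair was picked for its opposite directions. The reads at ARF4 per read at ARF3 were 2.30 and 1.97 in urt1-1 xrn4-3, 2.62 and 3.22 in xrn4-3, 2.34 and 2.51 in urt1-1 and 2.78 and 3.35 in WT, with the urt1-1 xrn4-3 ratios below the 6 others. The reads at ARF2 per read at ARF3 overlapped, at 5.88 and 7.90 in urt1-1 xrn4-3 and 4.18 and 6.64 in WT. How many other pairs of loci separate in this way was not determined. Of single loci, 53.1% did not overlap between urt1-1 xrn4-3 and WT. That share is for the WT libraries alone, an easier condition than lying beyond the 6 others.

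Per length of locus the order was ARF2, ARF4, ARF3 in all 4 genotypes. Per kb of locus, ARF2 had 19.2 ± 2.77 CPM in urt1-1 xrn4-3 and 16.3 ± 1.31 in WT, ARF4 had 6.67 ± 1.14 in urt1-1 xrn4-3 and 10.5 ± 1.19 in WT, and ARF3 had 3.67 ± 0.237 in urt1-1 xrn4-3 and 4.11 ± 1.00 in WT (SD, n = 2 each). Neighbours in this order did not overlap between genes in any genotype. Among all tested loci, the level per kb stood between percentiles 87.7 and 91.6 at ARF2 over the 8 libraries, between 75.3 and 87.1 at ARF4 and between 61.8 and 76.2 at ARF3. The locus length includes introns, while mature mRNA does not hold them.

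The 3 loci could be told apart from the rest of the genome in most of their length. No other locus of the table overlapped them, and the nearest neighbour, AT2G33855, lay 76 bp from ARF3. Of all 21-nt windows, 25 of 5185 (0.482%) of ARF2, 27 of 3753 (0.719%) of ARF3 and 58 of 4510 (1.29%) of ARF4 were also found elsewhere in the genome. With 1 mismatch allowed the shares were 3.18% for ARF2, 5.97% for ARF3 and 6.98% for ARF4. ARF3 and ARF4 shared 8 exact windows with each other, so that a read from such a window counts at both.

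The 23 ARF loci of the table were used to place the 3 genes in their family. By CPM per kb in WT, ARF2 came 8th, ARF4 10th and ARF3 13th, and in urt1-1 xrn4-3 they came 7th, 10th and 12th. The 7 loci above ARF2 in WT were ARF23, ARF21, ARF14, ARF22, ARF15, ARF20 and ARF12, a group on chromosome 1 with WT means between 24.7 and 50.6 CPM per kb. A part of their reads cannot be assigned to single genes, since between 38.2% (ARF23) and 69.0% (ARF21) of their 21-nt windows were found in another ARF locus. The same share was 0.135% for ARF2, 0.293% for ARF3 and 0.355% for ARF4.

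Of the ARF genes that microRNAs target, none was called in urt1-1 xrn4-3 against WT or in the 4 other comparisons by edgeR's likelihood ratio test. This is near the share called over all loci, which was 11.1% in urt1-1 xrn4-3 against WT and lower in the others. Among the miR160 targets, ARF10 had 40.8 and 28.0 CPM in urt1-1 xrn4-3 and 39.0 and 28.7 in WT, and ARF16 had 24.0 and 16.4 in urt1-1 xrn4-3 and 27.6 and 20.6 in WT, which overlapped. The median difference of the 3 miR160 targets was 0.02, and that of the 2 miR167 targets, ARF6 and ARF8, was 0.35. In the 15 remaining ARF genes the median was -0.72, 0 were called, and 3 had an unadjusted p under 0.05. These 15 include the 7 loci with shared windows, which under TMM scaling all lay below the median of all loci, from -1.03 at ARF23 to -0.72 at ARF12. Lower levels were not limited to them. ARF13, with 0.250% of its 21-nt windows in another ARF locus, had 6.67 and 7.70 CPM in urt1-1 xrn4-3 and 11.7 and 15.2 in WT. ARF9, which was named after its values were seen, came closest to the threshold with 1.04 (SE 0.38, adjusted p = 0.0506), from 12.6 and 10.9 CPM in urt1-1 xrn4-3 and 6.74 and 4.58 in WT.

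**Figure D4:**
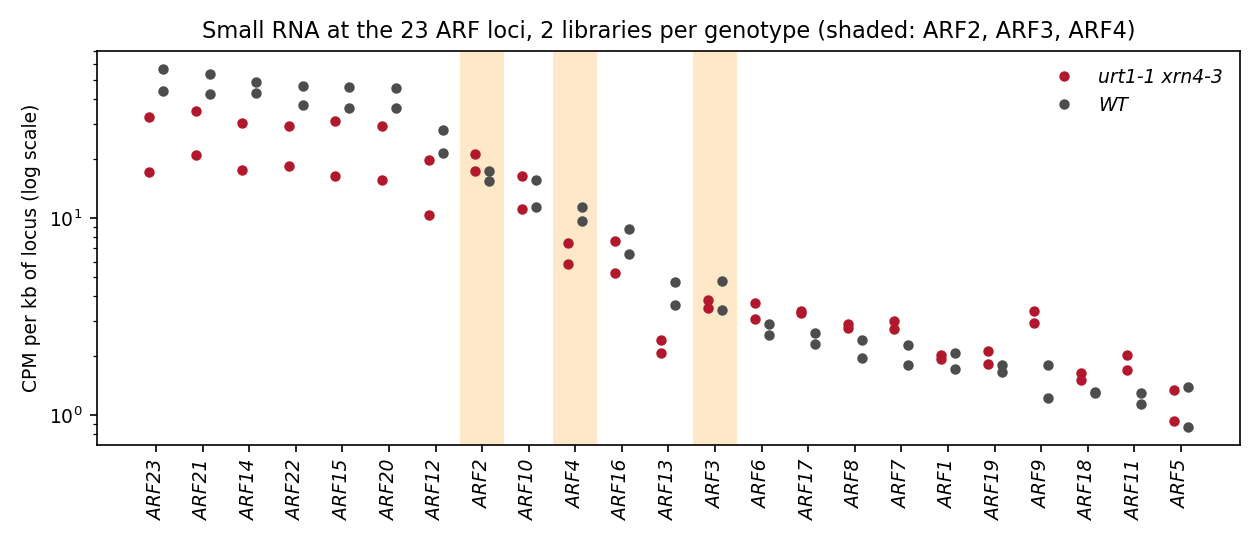
Small RNA in CPM per kb of locus (y axis, log scale) at the 23 ARF loci (x axis, ordered by the WT mean), with 2 libraries of urt1-1 xrn4-3 (red) and 2 of WT (grey) each. ARF2, ARF4 and ARF3, shaded, come 8th, 10th and 13th in WT. The 7 loci to the left of ARF2 share 38.2% to 69.0% of their 21-nt windows with another ARF locus.

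The genes of the pathway that makes TAS3 siRNAs were followed as a list of 12 loci, and 0 of 12 were called in any of the 5 comparisons by edgeR's likelihood ratio test. Over all loci, between 0.0283% (urt1-1 against WT) and 11.1% (urt1-1 xrn4-3 against WT) were called, so this count is near the background. In urt1-1 xrn4-3 against WT their median was -0.09, beside 0.01 for all loci, and 0 had an unadjusted p under 0.05. AGO1, the Argonaute that carries most microRNAs and TAS3 siRNAs, had 63.0 and 57.7 CPM in urt1-1 xrn4-3 and 57.0 and 40.2 in WT. DCL1, the Dicer that makes microRNAs and is itself the target of one, had 28.0 and 23.05 CPM in urt1-1 xrn4-3 and 30.3 and 24.2 in WT. At AGO7, the partner of miR390, the levels were 5.59 and 10.1 CPM in urt1-1 xrn4-3 and 6.96 and 13.1 in WT.

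Of 12 targets of the siRNAs of TAS1, TAS2 and TAS4, 11 were tested and 0 were called in any comparison by the same test. Since at most 11.1% of all loci were called in a comparison, this count is near the background too. Their median in urt1-1 xrn4-3 against WT was -0.40. Those with the most reads were pentatricopeptide repeat (PPR) genes, close paralogs between which reads can be shared. AT1G62910 had 765 and 423 CPM in urt1-1 xrn4-3 and 869 and 703 in WT, and AT1G63130 had 769 and 422 in urt1-1 xrn4-3 and 867 and 646 in WT, with overlap at both.

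Upstream of the auxin response factors, 2 of 3 auxin receptor genes targeted by miR393 rose in urt1-1 xrn4-3 against WT, where 2474 of all 24722 loci did. TIR1, an F-box protein that binds auxin and marks Aux/IAA repressors for degradation, had 87.7 and 73.1 CPM in urt1-1 xrn4-3 and 23.7 and 23.3 in WT, a difference of 1.77 (SE 0.50, adjusted p = 0.00754 by edgeR's likelihood ratio test and 0.0424 by the quasi-likelihood test). AFB2, its paralog, had 442 and 298 CPM in urt1-1 xrn4-3 and 119 and 118 in WT, a difference of 1.64 (SE 0.55, adjusted p = 0.0366 by edgeR's likelihood ratio test and 0.112 by the quasi-likelihood test). AFB3 had 330 and 193 CPM in urt1-1 xrn4-3 and 123 and 139 in WT, and its difference of 1.00 (adjusted p = 0.288 by edgeR's likelihood ratio test) did not pass. The libraries of the 2 genotypes did not overlap at any of the 3 receptor genes, as was so for 53.1% of all loci. Levels were higher than in WT in the single mutants too, though 0 of the 3 genes were called there. In urt1-1, TIR1 had 40.7 and 44.0 CPM, AFB2 291 and 297 and AFB3 322 and 372. In xrn4-3 the levels were 33.4 and 69.1, 190 and 434, and 150 and 311 CPM in this order. The median difference of the 3 genes from WT was 1.31 in urt1-1 and 1.13 in xrn4-3.

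Of 11 leaf polarity genes, which act with or against ARF3 and ARF4 in setting the upper and lower sides of the leaf, 2 rose in urt1-1 xrn4-3 against WT and 0 fell. With 2474 of 24722 loci higher and 260 lower over the whole table, this count is near the background and says nothing particular of the list. AS1 and AS2 encode partners that bind the ARF3 gene and repress it. AS1 had 37.5 and 27.6 CPM in urt1-1 xrn4-3 and 5.85 and 8.34 in WT, a difference of 2.20 (SE 0.49, adjusted p = 3.7e-04 by edgeR's likelihood ratio test and 0.0140 by the quasi-likelihood test). AS2 had 13.1 and 6.34 CPM in urt1-1 xrn4-3 and 1.63 and 2.50 in WT, a difference of 2.23 (SE 0.50, adjusted p = 2.6e-04 by edgeR's likelihood ratio test and 0.0111 by the quasi-likelihood test). Without WT replicate 1 the adjusted p was 0.0644 for AS1 and 0.0606 for AS2, with differences of 1.96 and 1.94. The median of the 11 genes was 0.50, beside 0.01 for all loci.

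AS2 was also higher in xrn4-3, at 5.17 and 7.94 CPM against 1.63 and 2.50 in WT (1.69, SE 0.51, adjusted p = 0.0262 by edgeR's likelihood ratio test and 0.101 by the quasi-likelihood test). That call was lost by DESeq2 (1.63, adjusted p = 0.0875) and without xrn4-3 replicate 2, without WT replicate 1 or without WT replicate 2, where the largest adjusted p was 0.395. The TIR1 call in urt1-1 xrn4-3 was lost without WT replicate 1 (adjusted p = 0.128), without WT replicate 2 (0.128) or without urt1-1 xrn4-3 replicate 1 (0.109). AFB2 was called in 10 of 18 alternatives and TIR1 in 15 of 18. In the other comparisons 0 loci of these 2 lists were called.

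**Figure D5:**
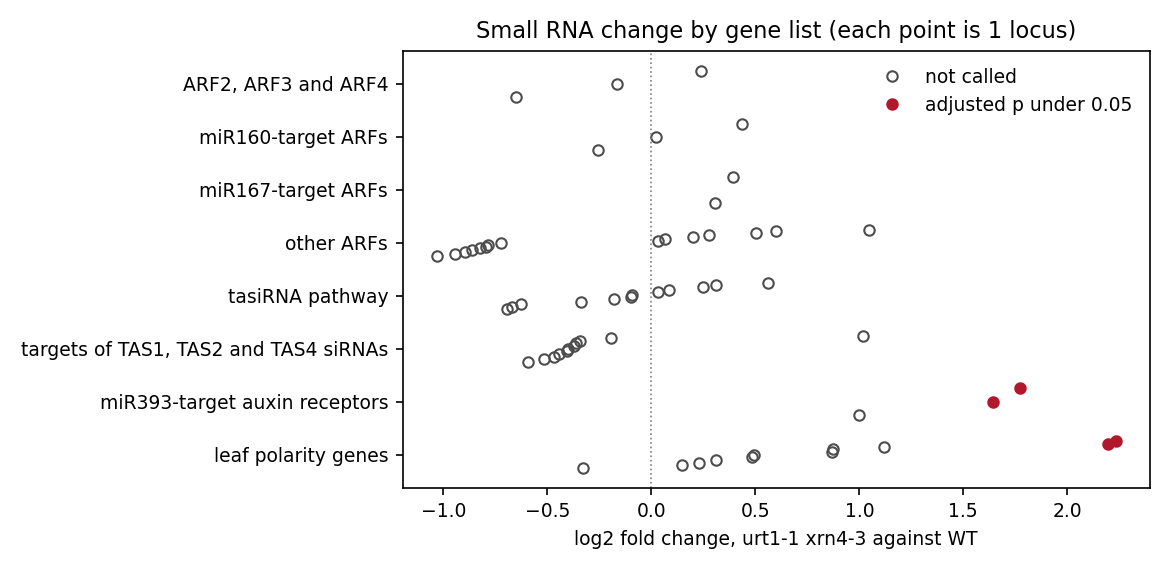
Log2 fold change of small RNA in urt1-1 xrn4-3 against WT (x axis) for each tested locus of 8 lists (rows); filled red points have an adjusted p under 0.05 by edgeR's likelihood ratio test. ARF2, ARF3 and ARF4 lie at 0.24, -0.16 and -0.65. The 4 filled points are TIR1, AFB2, AS1 and AS2.

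The loci whose levels ran most alike with each gene were taken by Pearson's r of log2(CPM + 1) over the 8 libraries, among 24412 loci with a mean of at least 10 reads. For ARF2 they were AT5G14500 (r = 0.97) and AT1G18830 (r = 0.97), for ARF3 HB2 (AT3G10520, r = 0.95) and AT1G45180 (r = 0.95), and for ARF4 AT3G25727 (r = 0.97) and AT1G44542 (r = 0.96). Between the genes themselves r was 0.66 for ARF3 with ARF4, -0.75 for ARF2 with ARF3 and -0.85 for ARF2 with ARF4. These are descriptions over libraries that share genotype, depth and scaling. A high r is partly built in for loci taken as the highest among 24412 over 8 libraries. AT1G18830, for example, had 72.0 and 149 CPM in urt1-1 xrn4-3 and 42.7 and 67.6 in WT. Levels were low at AT5G14500, from 1.51 to 3.76 CPM over the 8 libraries, and at HB2, from 1.21 to 3.70 CPM.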

How the data were processed

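Small RNA was read from 8 libraries (4 genotypes, 2 replicates), assigned by their labels. The authors selected RNA of 18 to 30 nt, made libraries from 3 µg of DNase-treated RNA, sequenced 50 bp reads (CASAVA 1.8.2), mapped reads of 14 to 30 nt to TAIR10 with Bowtie 1.0.0 (at most 1 mismatch, at most 50 loci) and counted them without strand with BEDTools 2.17.0. The authors deposited unscaled counts at 24859 mRNA loci, together with a signal per library that they scaled by library size and a normalization factor, with column sums of 815868 to 1129584, used here only as a check (their processing notes list edgeR 3.26.5).

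Counts were fitted with edgeR 4.0.16 in R 4.3.3 over all 8 libraries, with TMM factors, filterByExpr (minimum count 10), 1 coefficient per genotype, the likelihood ratio test and Benjamini-Hochberg adjustment over 24722 loci at 0.05. Intervals are normal intervals from the model's SE. With 2 libraries per genotype, p-values rest on a spread shared by all genotypes and drawn toward that of other loci. Depth was 6045353 to 30064224 counts. The model was tested on simulated data. The alternatives tried included DESeq2 1.42.0, the quasi-likelihood test, other scalings, other filters, only the genotypes compared, a replicate block and each library left out. Sequences and exons came from RefSeq TAIR10.1, in which 24447 loci matched by code, all but 1 at the same chromosome and overlapping. Python 3.11.15, numpy 2.4.6, pandas 2.3.3 and matplotlib 3.10.9 were used. Genes and lists were chosen with earlier results of these data known. Named are ARF2, ARF3, ARF4, the mutated genes, the called members of each list (up to 4) or else up to 2 examples by mean reads, and the 2 loci most alike to each gene. AGO7, AFB3, ARF9, ARF13, the 7 ARF loci with shared windows and the ratios between genes fall outside this rule and were named after their values were seen. Whether TAS3 siRNAs themselves differed was not analysed here.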

Additional observations from a re-analysis of the deposited data

How the results depend on the processing

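For ARF2, ARF3 and ARF4, 15 differences were recomputed in 267 alternatives. None of them passed the threshold (smallest adjusted p = 0.241, by edgeR's likelihood ratio test), 251 kept their direction and 16 turned it. With genome-mapped reads as library sizes, the difference of urt1-1 xrn4-3 from WT was 0.59 at ARF3 and 0.059 at ARF4, that of urt1-1 xrn4-3 from xrn4-3 was 0.22 at ARF3, and the interaction was 0.16 at ARF3 and 0.012 at ARF4. This scaling moves the median of all loci to 0.74, 0.49 and 0.55 in these 3 comparisons. Relative to that median, ARF3 and ARF4 stood at -0.15 and -0.68 in urt1-1 xrn4-3 against WT. In xrn4-3 against WT, ARF2 was at 0.019 with library size only, where the median was 0.31, and ARF4 at -0.026 without NIA1 and NIA2 and at -0.025 with only the genotypes compared. Leaving out each library in turn gave -0.39 to 0.11 for ARF3 in urt1-1 xrn4-3 against WT, -0.13 to 0.37 for ARF3 and -0.13 to 0.22 for ARF4 in xrn4-3 against WT, and -0.11 to 0.050 for ARF2 and -0.13 to 0.37 for ARF3 in urt1-1 against WT. Per kb of exon, the WT percentile was 91.3 at ARF2 (90.3 per kb of locus) and 88.5 at ARF4 (86.7).

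Replicate numbers are not stated to pair the libraries. Deviations of same-numbered libraries had r between 0.01 and 0.42, and with the replicate block ARF4 in urt1-1 xrn4-3 against WT was -0.65 (adjusted p = 0.347). The block changed no call at the 3 genes. Over all loci, the calls in urt1-1 xrn4-3 against WT were 2734, against 4949 with genome-mapped reads and 1438 to 3325 with a library left out. In xrn4-3 against WT they were 1099, against 498 by the quasi-likelihood test and 475 to 1727 with a library left out. For urt1-1 xrn4-3 against xrn4-3 they were 504, against 42 by the quasi-likelihood test, 269 with library size only, 276 with only the genotypes compared, 778 with the block and 222 to 1060 with a library left out. In urt1-1 against WT they were 7, against 0 by edgeR's quasi-likelihood test (458 at an unadjusted p under 0.05), 0 with genome-mapped reads (261 at an unadjusted p under 0.05), 1 by DESeq2, 4 with library size only, 14 with only the genotypes compared and 1 to 54 with a library left out. For the interaction they were 30, against 0 by the quasi-likelihood test (1151 at an unadjusted p under 0.05), 18 with genome-mapped reads, 16 with at least 10 reads in every library, 56 with the block and 11 to 174 with a library left out. The alternatives for TIR1, AFB2, AS1, AS2 and URT1 were chosen after seeing the data, and all kept their direction. Causes were not tested. The intervals given for the 3 genes hold the differences that 2 libraries per genotype do not exclude under the model's spread.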
